A study of Mus musculus with 6 samples.

Results

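The genes described here are 10 subunits of voltage-gated calcium channels, out of 43629 genes counted in left ventricular RNA. They were taken by symbol from a list of 10 names that was selected on earlier results of this same comparison, fold changes and calls, with Cacng6 among them, so the differences given here are a description of these genes and are not independent evidence. All 10 symbols were found in the count data. RNA came from 6 left ventricles of male F1 CD-1 mice aged 1 year. In the vehicle group (3 hearts) dams had been injected intraperitoneally once daily with normal saline, and in the caffeine group (3 hearts) with 20 mg/kg caffeine in saline, over E6.5–9.5 of gestation. One field of the sample labels ends the exposure at E10.5. No engineered allele and no treatment after birth is listed for these mice in the labels. CD-1 is an outbred stock, and the dam of each mouse was not given, so mice of the same litter cannot be told apart from independent litters, and all p-values take the hearts as independent.

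A voltage-gated calcium channel has a single pore-forming alpha1 subunit, which sets the current type, and in the L-type channels a cytoplasmic beta subunit and an extracellular alpha2delta subunit that bring the pore to the membrane and shape its gating. In ventricular cardiomyocytes the L-type current through the pore made by Cacna1c flows with each action potential and triggers calcium release from the sarcoplasmic reticulum. T-type channels open at more negative voltages and are known from pacemaker and conduction cells, and gamma subunits are small membrane proteins that modify gating in some tissues.

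The pore-forming genes differ in whether they hold the alpha interaction domain, the stretch by which the pore binds a beta subunit. This domain has 18 residues, and a search of the annotated coding sequences for the 9 residues that L-, P/Q-, N- and R-type pores have in common matched 7 of 21877 coding genes (0.032%). All 7 were among the 10 pore-forming genes, and Cacna1g, Cacna1h and Cacna1i, which encode the T-type pores, had no match. The match of these 7 follows from how the residues were chosen. No gene outside the pore-forming list matched. The coding bases are shown for the L-type genes with counts above the filter on low counts, because the match separates the 2 current types described below. Capitals mark the codons of the 9 searched residues.
Cacna1c: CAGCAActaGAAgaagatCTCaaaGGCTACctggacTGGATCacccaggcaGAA
Cacna1d: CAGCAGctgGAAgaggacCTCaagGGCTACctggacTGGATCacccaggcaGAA
Cacna1s: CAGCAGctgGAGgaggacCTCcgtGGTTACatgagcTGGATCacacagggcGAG
In GRCm38 the Cacna1c stretch lies at chr6:118734906-118734959 on the minus strand in exon 9 of the longest annotated coding transcript. The Cacna1d stretch lies at chr14:30142600-30142653 on the minus strand in exon 9, and that of Cacna1s at chr1:136076791-136076844 on the plus strand in exon 8. Of the 54 bases, 49 were identical between Cacna1c and Cacna1d and 38 between Cacna1c and Cacna1s. These bases are the reference sequence of GENCODE release M21, not a sequence read from the hearts.

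Raw counts per gene totalled between 9228359 and 10483101 in the vehicle hearts and between 7613011 and 9153997 in the caffeine hearts, so each caffeine library was smaller than each vehicle library. Levels are given as CPM, a gene's count relative to the size of its library, with TMM factors of 0.94 to 1.072, and 3 counts corresponded to 0.284 to 0.42 CPM. Tissue identity was checked with marker genes. The 8 ventricular cardiomyocyte genes summed to 57800 to 67000 CPM in vehicle and 57900 to 61200 CPM in caffeine hearts, while the atrial genes Myl7, Sln and Bmp10 were at or near 0 in all 6. The rest of the atrial list had counts in every heart. Myl4 was at 0.70 to 1.76 CPM, Dkk3 at 2.15 to 3.61 CPM and Nppa at 51.3 to 433 CPM. A gene was called at a Benjamini-Hochberg adjusted p below 0.05 by edgeR's quasi-likelihood test with a fold change above 1.5, and 14 of 13092 tested genes (0.107%) were called. None of the subunits was called. In this test 4 of the 9 subunits that passed the filter had an unadjusted p below 0.05, against 8.82% of all tested genes. In 3 of the 9 every caffeine heart was below every vehicle heart, against 7.12% of tested genes, and in 1 every caffeine heart was above, against 7.11%. The remaining subunit, Cacna1h, had too few counts to be tested. Since the names were chosen with these differences known, nothing is read from those counts. The median log2 fold change was -0.14 over the 9 tested subunits and 0 over all tested genes.

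**Figure D1:**
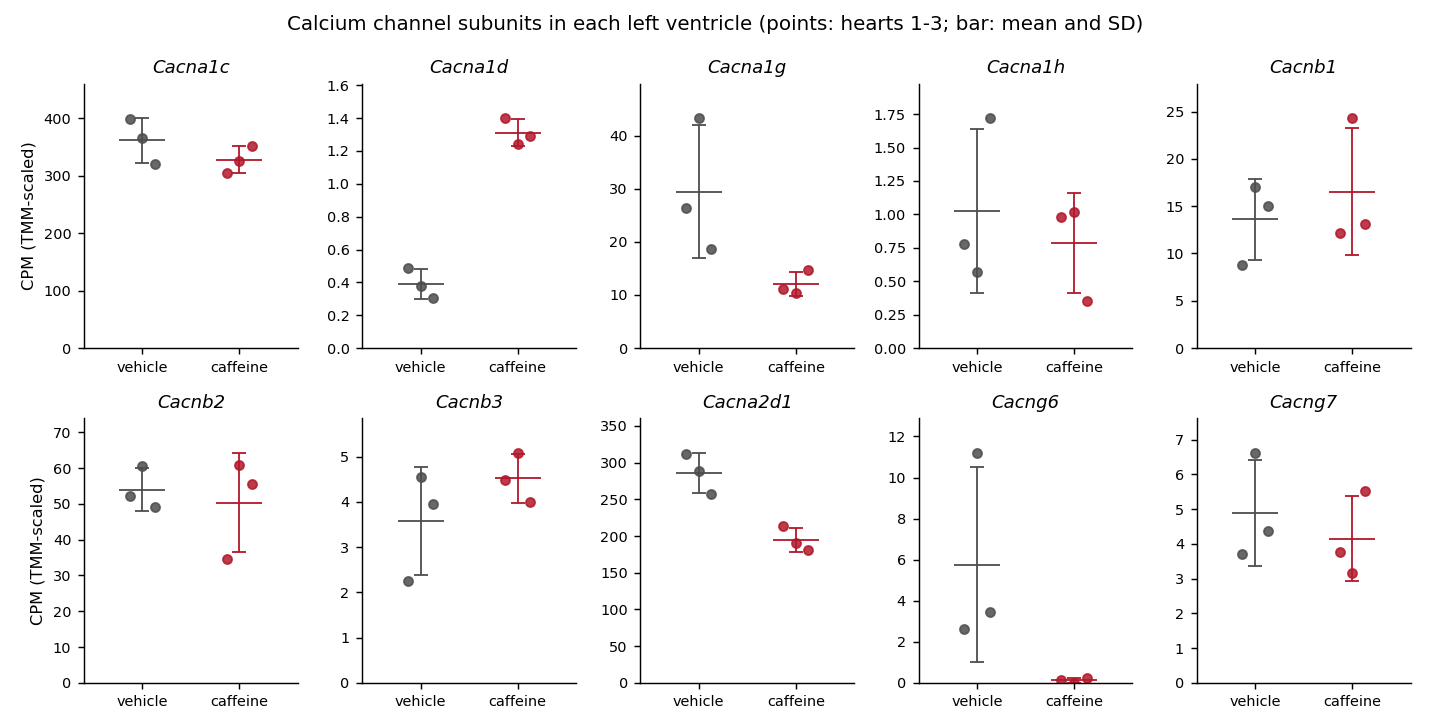
Level of each subunit in each heart, in CPM on a linear axis from 0; points are hearts, horizontal bars the means and error bars the SD (n = 3 per treatment). Cacna1g, Cacna2d1 and Cacng6 were lower in all 3 caffeine hearts than in any vehicle heart, Cacna1d was higher in all 3, and the treatments overlapped in the other 6 genes.

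Levels of different genes were compared per kilobase of exon. In vehicle hearts Cacna2d1 stood first at 23.0 ± 2.22 CPM per kilobase (SD, n = 3), followed without overlap by Cacna1c at 17.1 ± 1.82. Far below these came Cacnb2 at 4.08 ± 0.451, Cacnb1 at 3.00 ± 0.948, Cacna1g at 2.91 ± 1.24, Cacng6 at 2.91 ± 2.38 and Cacng7 at 2.01 ± 0.627 CPM per kilobase. The vehicle hearts of these 5 genes overlapped, apart from Cacnb2, which was above Cacng7 in every vehicle heart, so on this scale most of their order is not larger than the spread between hearts. Cacnb3 followed at 0.893 ± 0.297 CPM per kilobase, and Cacna1h at 0.105 ± 0.0629 and Cacna1d at 0.0309 ± 0.00736 came last, the last of these at 3 to 5 counts in a heart.

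In caffeine hearts the top of the order was closer. Cacna2d1 was at 15.7 ± 1.35 CPM per kilobase and Cacna1c at 15.5 ± 1.12, with overlapping hearts, and Cacnb2 at 3.81 ± 1.05 and Cacnb1 at 3.65 ± 1.48 came next. Cacng7 at 1.70 ± 0.499, Cacna1g at 1.19 ± 0.228 and Cacnb3 at 1.13 ± 0.136 CPM per kilobase followed. Cacna1g overlapped with both of the others, while every Cacng7 value was above every Cacnb3 value. Cacng6, level with Cacna1g in vehicle hearts, was last at 0.0631 ± 0.0597 CPM per kilobase, below Cacna1d at 0.104 ± 0.00643 and Cacna1h at 0.0802 ± 0.0383, with overlapping hearts. With the longest transcript in place of all exons the vehicle order was the same, but Cacnb2 was at 10.7 CPM per kilobase in vehicle hearts and above Cacnb1 (4.01), Cacna1g (3.52) and Cacng6 (2.91) without overlap.

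**Figure D2:**
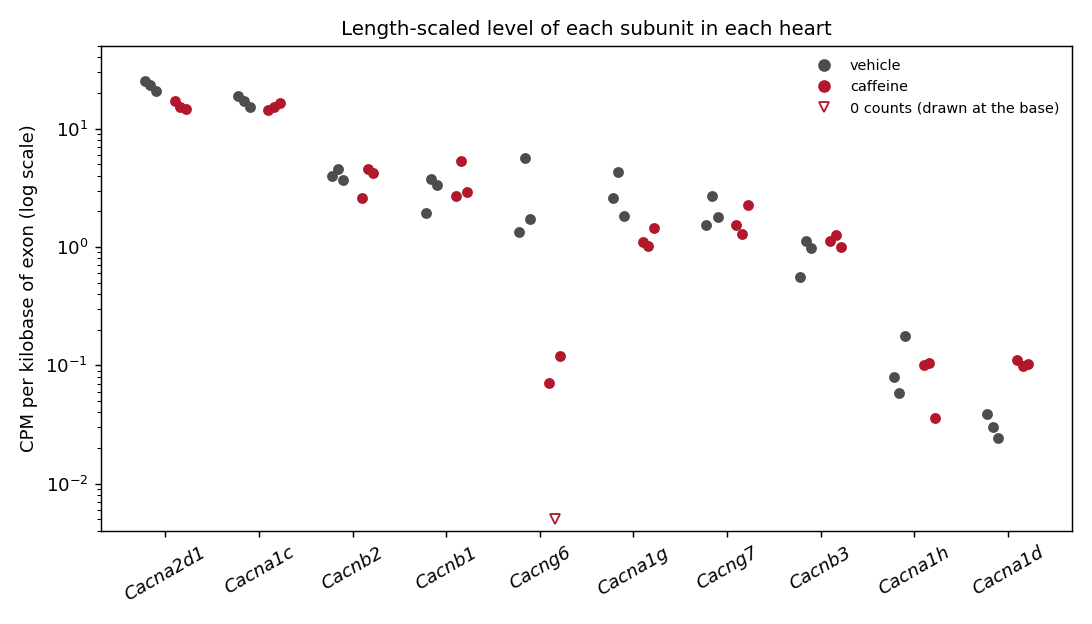
Level of each subunit in each heart in CPM per kilobase of exon, on a log axis, with genes ordered by their vehicle mean; points are hearts and the open triangle is a heart with 0 counts. Cacna2d1 and Cacna1c stood above the rest in both treatments, and Cacng6 moved from the middle of the vehicle order, 2.91, to the end of the caffeine order, 0.0631.

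Of the pore-forming genes, Cacna1c, the main L-type pore of the ventricle, was at 398, 365 and 321 CPM in vehicle hearts 1 to 3 and at 305, 326 and 352 CPM in caffeine hearts 1 to 3. The treatments overlapped, and the means were 361 ± 38.5 and 328 ± 23.7 CPM (SD, n = 3). The log2 fold change was -0.14 (SE 0.10, edgeR adjusted p = 0.743), with a 95% interval of -0.36 to 0.08. Each Cacna1c value rests on at least 2178 counts.

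Cacna1g, the T-type pore that is best known from the sinoatrial and atrioventricular nodes, was at 26.4, 43.3 and 18.7 CPM in vehicle hearts and at 11.2, 10.3 and 14.7 CPM in caffeine hearts. Every caffeine heart was below every vehicle heart, and vehicle heart 2 was the highest of all. The means were 29.5 ± 12.6 and 12 ± 2.31 CPM (SD, n = 3), a log2 fold change of -1.29 (SE 0.27) with an unadjusted p of 0.000618 and an adjusted p of 0.135 in edgeR's quasi-likelihood test. In RNA from whole tissue, fewer cells of a type and less RNA per cell cannot be told apart. Per kilobase, Cacna1g amounted to 13.9%, 24.8% and 12.2% of Cacna1c in vehicle hearts and to 7.68%, 6.59% and 8.70% in caffeine hearts. Cacna1g was called with edgeR's exact and likelihood ratio tests and with DESeq2, at adjusted p of 0.00147, 0.00131 and 0.000198. In all it was called in 5 of 15 alternatives. It was not called with limma-voom (adjusted p = 0.211) or with DESeq2-type size factors (edgeR adjusted p = 0.135). Without vehicle heart 2, the highest, its log2 fold change was -0.90 (edgeR adjusted p = 0.273).

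The other T-type pore, Cacna1h, had 8, 6 and 17 counts in vehicle and 7, 9 and 3 counts in caffeine hearts. These are 0.782, 0.568 and 1.72 CPM against 0.980, 1.02 and 0.352 CPM, and the treatments overlapped. The ratio of the summed counts per library, caffeine over vehicle, was 0.766 with an exact Poisson interval of 0.409 to 1.40, which covers counting error only. The same ratio for Cacna1g, 0.405, lies just below the lower bound of 0.409, but this interval leaves out the spread between hearts. Fitted without the filter, Cacna1h had a log2 fold change of -0.40 (SE 0.52). These counts therefore do not settle whether Cacna1h differed as Cacna1g did.

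Cacna1d, the second L-type pore and one that acts in pacemaker cells, was near the count floor. It had 5, 4 and 3 counts in vehicle hearts and 10, 11 and 11 in caffeine hearts, or 0.488, 0.379 and 0.304 CPM against 1.40, 1.24 and 1.29 CPM. Every caffeine heart was above every vehicle heart. Cacna1d passed the filter on low counts only through the caffeine group, where it was high, so its log2 fold change of 1.71 (SE 0.40, edgeR adjusted p = 0.189) is given as a description. The ratio of the summed counts per library was 3.33, with an exact Poisson interval of 1.67 to 7.11. Its exons overlap those of the antisense gene Chdh over 4.67% of their length. Chdh itself had at most 0.810 CPM in a heart, with overlapping treatments, and whether the counting used strand is not given in the sources used here.

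The cytoplasmic beta subunits overlapped between the treatments throughout. Cacnb2, the main beta subunit of the heart, was at 52.2, 60.6 and 49.0 CPM in vehicle and at 34.6, 60.8 and 55.7 CPM in caffeine hearts. Its log2 fold change was -0.09 (SE 0.18, edgeR adjusted p = 0.933), and caffeine heart 1 alone was below the vehicle range. Cacnb1, the beta subunit of the skeletal muscle channel, was at 8.79, 17 and 15 CPM in vehicle and at 12.2, 24.3 and 13.1 CPM in caffeine hearts, with a log2 fold change of 0.29 (SE 0.28, edgeR adjusted p = 0.834). Cacnb3, best known from brain and smooth muscle, was at 2.25, 4.54 and 3.95 CPM in vehicle and at 4.48, 5.08 and 3.99 CPM in caffeine hearts, with a log2 fold change of 0.33 (SE 0.28, edgeR adjusted p = 0.80). The 95% intervals were -0.48 to 0.30 for Cacnb2, -0.34 to 0.92 for Cacnb1 and -0.29 to 0.95 for Cacnb3. Cacnb1 lay below 0 without caffeine heart 2, at -0.10, and Cacnb2 above 0 without caffeine heart 1, at 0.11, so neither has a settled direction.

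Cacna2d1 encodes the alpha2delta subunit that also binds gabapentin. It was at 312, 288 and 257 CPM in vehicle hearts and at 213, 190 and 181 CPM in caffeine hearts, and the lowest vehicle heart was above the highest caffeine heart. The means were 286 ± 27.5 and 195 ± 16.8 CPM (SD, n = 3), a fold of 0.681. The log2 fold change of -0.56 (SE 0.10) had a 95% interval of -0.78 to -0.34, an unadjusted p of 0.000175 and an adjusted p of 0.0791 in edgeR's quasi-likelihood test. Its fold in the other direction, 1.47, was under the limit of 1.5. With library size alone in place of TMM factors it was called, at a log2 fold change of -0.64 and an adjusted p of 0.0193. Its adjusted p was below 0.05 in 6 of 15 alternatives, among them edgeR's exact test (0.000819) and DESeq2 (0.000403). Only with library size alone did its fold also pass the limit of 1.5. Relative to Cacna1c, per kilobase, Cacna2d1 was at 134%, 135% and 137% in vehicle hearts and at 119%, 99.5% and 87.5% in caffeine hearts, so this ratio did not overlap between the treatments either.

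Cacng6, a gamma subunit known from heart and skeletal muscle and reported to lower T-type current, had the widest gap. It had 27, 118 and 34 counts in vehicle hearts and 1, 0 and 2 in caffeine hearts, or 2.64, 11.2 and 3.44 CPM against 0.140, 0 and 0.235 CPM. Every caffeine heart was at or under 2 counts, and vehicle heart 2 alone held 65.9% of the vehicle counts. At the lowest vehicle level the caffeine libraries would have held 18.8, 23.4 and 22.5 counts, against the 1, 0 and 2 recorded. The summed counts were 179 and 3, a ratio per library of 0.021 with an exact Poisson interval of 0.00428 to 0.0622. That interval covers counting error only, and the vehicle hearts varied by more than that, with a mean of 5.75 ± 4.71 CPM (SD, n = 3) against 0.125 ± 0.118 CPM. Cacng6 passed the filter on low counts only through the vehicle group, where it was high, so its fit and its calls are given as a description. The log2 fold change of -5.41 (SE 0.87) had an unadjusted p of 6.63e-05 and an adjusted p of 0.0578 in edgeR's quasi-likelihood test. Cacng6 was called with edgeR's exact and likelihood ratio tests, with DESeq2, with library size alone, without the filter and with replicate numbers taken as blocks, but not in the comparison as defined here, nor with limma-voom or DESeq2-type size factors. Without vehicle heart 2, the highest, its log2 fold change was -4.48 (edgeR adjusted p = 0.0564).

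Cacng7, the other gamma subunit described here, had counts in every heart and belongs to the gamma subunits that also bind glutamate receptors in brain. It was at 3.71, 6.62 and 4.36 CPM in vehicle and at 3.78, 3.16 and 5.51 CPM in caffeine hearts, with overlapping treatments. Its log2 fold change was -0.24 (SE 0.29, edgeR adjusted p = 0.88), with a 95% interval of -0.88 to 0.40, and it was 0.04 without vehicle heart 2.

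In GRCm38, Cacng7 (chr7:3332955-3368221), Cacng8 (chr7:3390683-3415648) and Cacng6 (chr7:3424195-3435667) follow each other on the plus strand of chromosome 7. Cacng8 had 0 counts in all 6 hearts. Beyond Cacng6, the receptor gene Oscar had 13 counts in vehicle and 5 in caffeine hearts, Tarm1 had none, and Ndufa3, a subunit of respiratory complex I, was at 165 to 233 CPM against 189 to 259 CPM. Oscar was at 0.488, 0.284 and 0.507 CPM in vehicle and at 0.280, 0.226 and 0.117 CPM in caffeine hearts. It was lower in every caffeine heart, against 7.12% of all tested genes, but only by 0.284 against 0.280 CPM. Oscar had too few counts to be tested, and nothing is read from its values. Cacng7 and Ndufa3 overlapped.

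No stretch of 75 bases, the read length, in annotated transcripts of Cacng6 or Cacng7 occurs in a transcript of another gene on either strand. The same held for Cacna1c, Cacna1g, Cacnb3 and Cacna2d1. For Cacna1d, Cacna1h, Cacnb1 and Cacnb2 between 0.127% and 5.04% of such stretches occur in another gene, in each case an overlapping one on the opposite strand, so the subunits do not share reads of this length with each other.

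**Figure D3:**
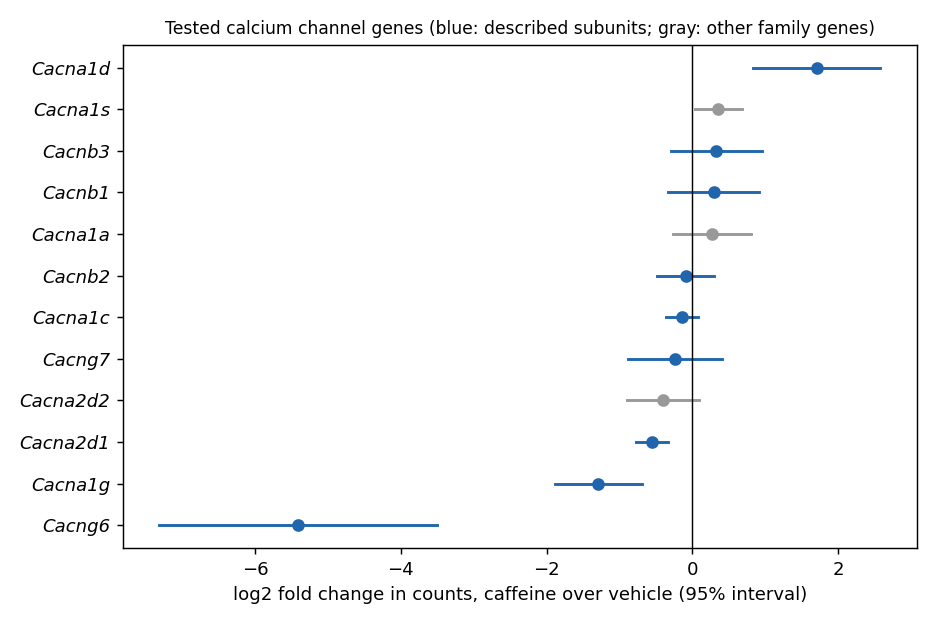
Log2 fold change in counts, caffeine over vehicle, with its 95% interval, for the 9 tested subunits (blue) and the 3 other tested calcium channel genes (gray). The intervals of Cacng6, Cacna1g and Cacna2d1 lie below 0 and those of Cacna1d and Cacna1s above 0, but none of the 12 genes was called.

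The calcium channel family holds 16 further genes, of which 13 had a count and 3 passed the filter, with none called. Cacna1s, the pore of the skeletal muscle L-type channel, was at 16, 17.2 and 12.8 CPM in vehicle and at 20.0, 21.4 and 17.4 CPM in caffeine hearts, with every caffeine heart above every vehicle heart. Its log2 fold change was 0.35 (SE 0.15, edgeR adjusted p = 0.535), and an antisense gene overlaps 20.0% of its exon length. The alpha2delta gene Cacna2d2 was at 5.76, 5.68 and 5.88 CPM in vehicle and at 3.50, 5.64 and 3.87 CPM in caffeine hearts. Its hearts did not overlap, but only by 5.68 against 5.64 CPM, and its log2 fold change was -0.40 (SE 0.22, edgeR adjusted p = 0.657). Of all tested genes, 7.11% were higher and 7.12% lower in every caffeine heart, so nothing is read from the lack of overlap in Cacna1s and Cacna2d2. Cacna1a, a P/Q-type pore, overlapped at 3.41 to 3.91 CPM in vehicle and 3.78 to 5.64 CPM in caffeine hearts.

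The remaining family genes had too few counts to be tested. Cacna2d3 had 15, 11 and 14 counts in vehicle and 8, 8 and 7 in caffeine hearts, and Cacnb4 had 2, 5 and 7 counts against 5, 8 and 7, and in CPM both overlapped between the treatments. Cacng1, the gamma subunit of skeletal muscle, had 1, 0 and 0 counts in vehicle and 3, 2 and 2 counts in caffeine hearts. Cacna1b, Cacna1e, Cacna1f, Cacna1i, Cacna2d4, Cacng4 and Cacng5 had between 0 and 4 counts in a heart, and Cacng2, Cacng3 and Cacng8 had none in any.

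The makeup of each class was taken per kilobase over all its genes. Cacna1c made up 70.2% to 77.7% of the pore-forming signal in vehicle and 75.2% to 78.3% in caffeine hearts. The share of Cacna1g was 10.7%, 17.4% and 9.48% in vehicle and 5.77%, 4.97% and 6.81% in caffeine hearts. Cacna1s, by contrast, held 9.99% to 10.7% in vehicle and 12.5% to 16% in caffeine hearts. Cacnb2 and Cacnb1 divided most of the beta class, with Cacnb2 at 45.9% to 61.0% in vehicle and 40.2% to 51.4% in caffeine hearts. By the longest transcript these shares of Cacnb2 were 62.1% to 75.1% and 56.4% to 67.1%. Cacna2d1 made up 95% to 96.7% of the alpha2delta class in all 6 hearts. In the gamma class Cacng6 held 45.5%, 67.5% and 49.0% in vehicle hearts and 3.55%, 0% and 4.57% in caffeine hearts, where Cacng7 held 77.7%, 84.1% and 86.9%. These shares are descriptions, and a share moves when any gene of its class does.

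**Figure D4:**
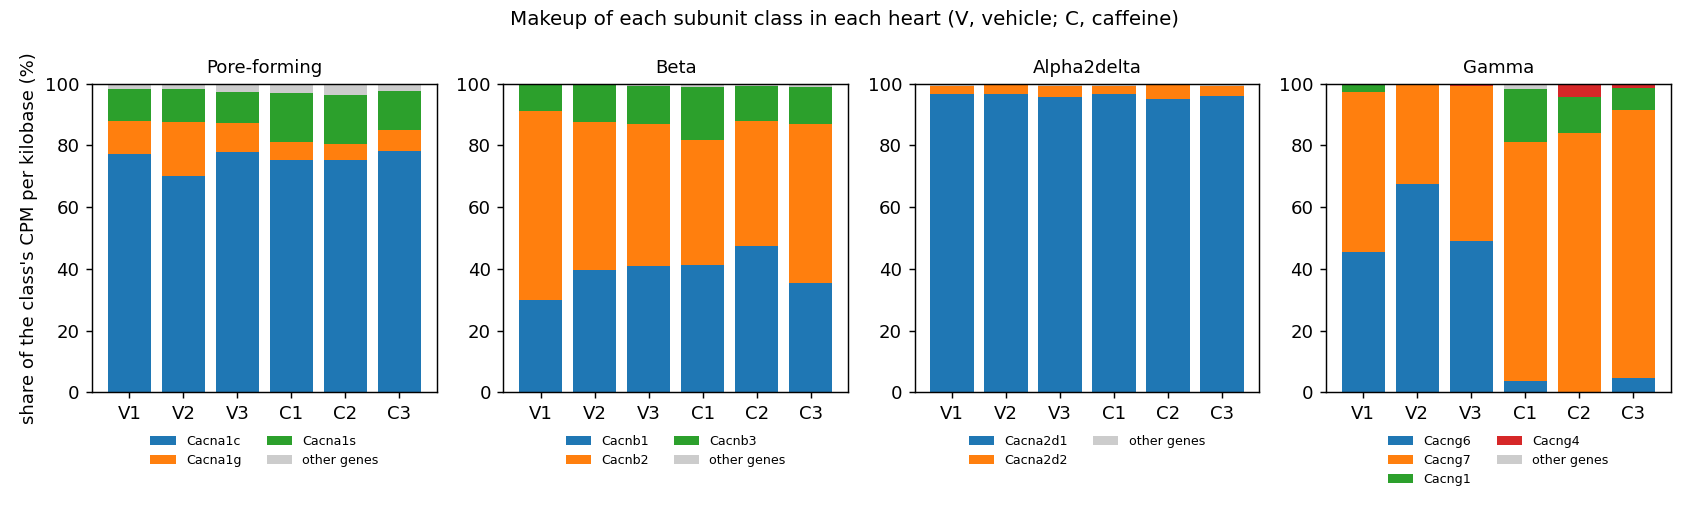
Share of each gene in the summed CPM per kilobase of its class, in percent, for each heart (V1 to V3, vehicle; C1 to C3, caffeine); genes under 3% in every heart are summed as other genes. Cacna1c and Cacna2d1 dominated their classes in all hearts, and Cacng6 held 45.5% to 67.5% of the gamma class in vehicle hearts and at most 4.57% in caffeine hearts.

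A list of 24 genes whose products bind the L-type channel, modify it or place it in the membrane was described in the same way. Of these, 23 had a count, 20 were tested and none was called, with a median log2 fold change of -0.05 and a range of -0.34 to 0.47. The treatments did not overlap in 2 of the 20, both lower in every caffeine heart, against 7.12% of all tested genes, and nothing is read from that count. Calm3, which encodes the calcium sensor calmodulin, was at 264, 298 and 270 CPM in vehicle and at 244, 231 and 250 CPM in caffeine hearts (log2 fold change -0.20, SE 0.08, edgeR adjusted p = 0.548). Ncs1, a neuronal calcium sensor, was at 17.6, 18.8 and 20.2 CPM in vehicle and at 16.8, 15 and 15.7 CPM in caffeine hearts (log2 fold change -0.25, SE 0.12, edgeR adjusted p = 0.599). Rrad, a small GTPase that restrains the channel through its beta subunit, ranged from 105 to 287 CPM within the vehicle hearts alone and from 136 to 241 CPM in caffeine hearts.

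Markers of other cells that could be in a left ventricle were examined beside the pacemaker-associated genes. Of 10 conduction-system genes, 6 were tested and 3 of these were lower in every caffeine heart, against 7.12% of all tested genes, with none called. Their sum was 101 to 117 CPM in vehicle and 70.7 to 86.2 CPM in caffeine hearts. Hcn4, the pacemaker channel, was at 15.5, 15.9 and 9.83 CPM in vehicle and at 7.42, 6.10 and 5.51 CPM in caffeine hearts (edgeR adjusted p = 0.102). Cntn2, a cell adhesion protein of Purkinje cells, was at 3.91, 7.29 and 13.5 CPM in vehicle and at 0.420, 1.24 and 1.06 CPM in caffeine hearts (edgeR adjusted p = 0.0584). With 40, 77 and 133 counts against 3, 11 and 9, Cntn2 passed the filter on low counts only through the vehicle group, where it was high. Its fit and its place among the 3 lower genes are therefore descriptions. Irx3, a transcription factor, was at 45.7 to 49.5 CPM against 30.4 to 42.3 CPM. Gja5, a connexin of the same cells and of arteries, overlapped at 11.1 to 12.9 CPM against 10.6 to 13.3 CPM, and Isl1 had no count. Tbx3 overlapped at 16.9 to 29.2 CPM against 14.1 to 26.8 CPM, and Etv1 at 2.54 to 4.36 CPM against 1.99 to 3.84 CPM. Cacna1d, described above as acting in pacemaker cells, was higher in every caffeine heart, near the count floor. Vehicle heart 2 was highest for Cacna1g and Cacng6, and vehicle heart 3 was highest for Cntn2. For Hcn4, vehicle hearts 1 and 2 were nearly level, at 15.5 and 15.9 CPM. Vehicle heart 3 was the lowest vehicle heart for Cacna1g and Hcn4. The part of conduction tissue in the Cacna1g and Cacng6 values was not tested.

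**Figure D5:**
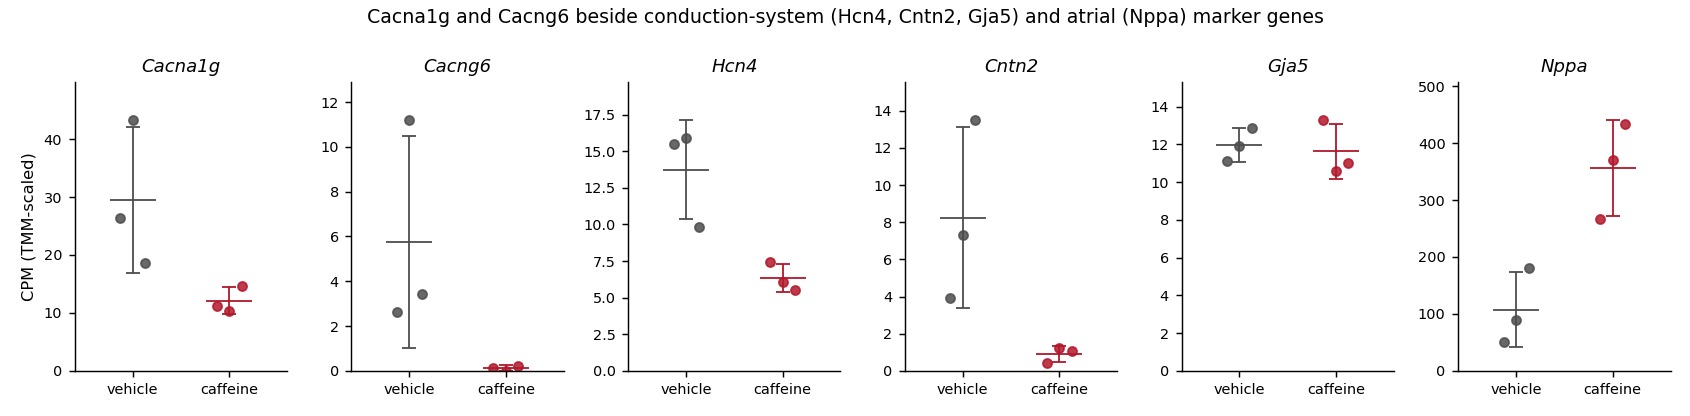
Cacna1g and Cacng6 beside the conduction-system genes Hcn4, Cntn2 and Gja5 and the atrial gene Nppa, in CPM on linear axes from 0; points are hearts, horizontal bars the means and error bars the SD (n = 3 per treatment). Hcn4 and Cntn2 were lower in all 3 caffeine hearts, Gja5 overlapped, and Nppa was higher in all 3.

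Of the other lists, the 6 atrial genes summed to 55.6 to 185 CPM in vehicle and 270 to 438 CPM in caffeine hearts, nearly all of it Nppa, a natriuretic peptide that ventricles also make. The 5 fibroblast genes summed to 667 to 817 CPM in vehicle and 889 to 1050 CPM in caffeine hearts, with Col3a1 and Dcn higher in every caffeine heart, against 7.11% of all tested genes, and none called. The 9 neuronal genes summed to 25.0 to 34.8 CPM against 17.7 to 24.8 CPM, of which Dbh and Stmn2 held nearly all, and Th and Gap43 had no count. Dbh, which makes noradrenaline, was at 17, 18.8 and 22 CPM in vehicle and at 12.6, 9.26 and 6.10 CPM in caffeine hearts, lower in every caffeine heart (log2 fold change -1.06, SE 0.22, edgeR adjusted p = 0.134). Stmn2, a neuronal tubulin-binding protein, overlapped at 7.91 to 12.5 CPM against 10.7 to 11.6 CPM. Smooth muscle genes summed to 227 to 272 CPM against 196 to 232 CPM, and endothelial genes to 518 to 594 CPM against 528 to 569 CPM. Cacnb1, Cacna1s and Cacng6 are also known from skeletal muscle. Of the 7 fast skeletal muscle genes, Myh4 and Myh1 had no count in any heart. Mylpf had 3, 3 and 2 counts in vehicle and 1, 0 and 0 in caffeine hearts, Actn3 had 4, 0 and 5 against 0 in each, and Tnnt3 had 2, 2 and 1 against 0, 0 and 1. Ckm, which cardiomyocytes also express, was at 2000 to 2600 CPM against 1900 to 2370 CPM, and Myl1 at 16.6 to 27.6 CPM against 13.2 to 33.5 CPM. The part of these other cells in the subunit values was not tested.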

How the data were processed

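Poly(A) RNA from 6 left ventricles was sequenced as single-end reads. The authors passed the reads through FastQC, aligned them to mm10 (GRCm38) using TopHat2, and used HTSeq with Ensembl release 79 genes to count them. What was deposited are raw counts, and versions and strand setting are not given in the sources used here. The library kit does not mark strand. The subunits, gene lists and tests were chosen with earlier results of these data known.

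Counts were filtered with filterByExpr (minimum count 10, minimum total 15), leaving 13092 of 43629 genes, scaled by TMM and fitted with edgeR 4.0.16 (glmQLFit, glmQLFTest) in R 4.3.3, with treatment as the only term. The biological coefficient of variation was 12.1%. Adjusted p-values are Benjamini-Hochberg values over all tested genes. An exact permutation test of 3 against 3 hearts cannot go below p = 0.1, so none was used. Count ratios have exact 95% Poisson intervals. On simulated counts with 13010 genes past the filter the test recovered 191 of 200 changed genes with 12 false calls. This recovery holds only for the sizes of change and the expression levels that were simulated. Recovery of changes as small as those of Cacna2d1, Cacna1g, Hcn4 and Dbh, or in genes with as few counts as Cacna1d and Cacna1h, was not tested. Replicates of a treatment differed by more than sampling noise (chi-square per degree of freedom 5.37 to 14). Gene positions and exon lengths are from GENCODE M21, which had no symbol for 1167 identifiers. All 10 subunits are described in full, family genes by value or range, partner genes where the treatments did not overlap, and markers by list. DESeq2 1.42.0, limma 3.58.1 (voom), other scalings, filters, the replicate number as a block and each heart left out were the alternatives.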

Additional observations from a re-analysis of the deposited data

How the results depend on the processing

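In the comparison as defined, 14 genes and 0 subunits were called. The counts were also 14 and 0 with limma-voom, with DESeq2-type size factors and with at least 10 counts required in every heart. With edgeR's exact test the counts were 94 and 2, with its likelihood ratio test 101 and 2, with DESeq2 67 and 2, with library size alone 27 and 2, and without the filter 240 and 2. Cacng6 passes the filter only through the vehicle hearts, so its calls are descriptions. The 2 subunits were Cacng6 and Cacna1g, except with library size alone, where they were Cacng6 and Cacna2d1. Library size alone moved the median of all genes by -0.084 on the log2 scale. Leaving out 1 heart gave 4 to 28 genes and 0 to 2 subunits. Without vehicle heart 3, Cacng6 (adjusted p = 0.0392) and Cacna1g (adjusted p = 0.0356) were called, and without vehicle heart 1, Cacng6 (adjusted p = 0.0198). Over the alternatives the adjusted p of Cacng6 ran from 3.79e-25 to 0.173 and its log2 fold change from -6.25 to -4.48. The other members that did not overlap had log2 fold changes of -1.53 to -0.90 for Cacna1g and -0.64 to -0.49 for Cacna2d1. For Cacna1d they were 1.56 to 1.89, and Cacna1d passes the filter only through the caffeine hearts. In genes that do not overlap, the hearts stay apart with any 1 left out, so the sign could not change there. With 1 heart left out the log2 fold change changed sign for Cacnb1 (-0.10 to 0.49), Cacnb2 (-0.25 to 0.11) and Cacng7 (-0.50 to 0.04). The family and partner lists had 0 calls throughout. With at least 10 counts required in every heart, Cacng6, Cacna1d and Cacna1h could not be tested. The cause of these differences was not tested.

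No pairing of the hearts by replicate number was seen, though correlations over 3 hearts per treatment cannot settle this. Same-numbered hearts had correlations of 0.063, -0.014 and -0.042 in their deviations from the treatment means, and not every heart correlated best with its own number. With the replicate number as a block, 40 genes and 1 subunit, Cacng6 (adjusted p = 0.011), were called. At these depths Cacna1d, Cacna1h and Cacng6 rest on few counts in at least 1 treatment.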
